A study of Mus musculus with 11 samples.

Results

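Notch signaling was examined in conventional type 1 dendritic cells (cDC1s) isolated from B16 tumors (B16 is a transplantable melanoma line of mice), through 9 genes picked by name from the 24421 genes of the deposited count table. The genes were the receptors *Notch1*, *Notch2* and *Notch4*, the receptor-processing enzymes *Adam10*, *Psen2* and *Ncstn*, the nuclear partners *Rbpj* and *Maml1*, and the target *Hes1*. *Notch4* was chosen because its read counts in these same pools were lower in one mutant line and higher again in the other, so its values are given as a description with no test. The other 8 genes were listed by their role. RNA-seq covered 11 pools, each a separate pool of tumors from 2 to 4 mice. The control group had 4 pools without Cre, of which replicates 1 to 3 were XBP1 fl/fl and replicate 4 was XBP1 fl/fl, IRE1 fl/fl. The XBP1ΔDC group had 4 pools of XBP1 fl/fl mice with CD11c-Cre, which deletes in cells that express CD11c and is thus not restricted to cDC1s. The XBP1ΔDCIRE1truncDC group had 3 pools of XBP1 fl/fl, IRE1 fl/fl mice with CD11c-Cre, in which IRE1 also lacks its RNase domain. All mice carried the floxed *Xbp1* allele and B16 tumors, and the study's methods give an age of 6 to 14 weeks and both sexes for its mice.

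Notch receptors sit at the cell surface and are bound by ligands of the Delta and Jagged families on neighboring cells. ADAM10 then cuts the receptor outside the membrane, the γ-secretase complex (presenilin, nicastrin, APH1 and PEN2) cuts it within the membrane, and the freed intracellular domain joins RBPJ and a Mastermind protein on DNA to switch on genes such as *Hes1*. In dendritic cells NOTCH2 is known for its part in the maturation of splenic and intestinal subsets, whereas NOTCH4 is best known from endothelial cells. IRE1 is a sensor of the endoplasmic reticulum (ER) membrane whose RNase domain splices *Xbp1* mRNA. The same domain also cuts other mRNAs, an activity called regulated IRE1-dependent decay (RIDD). The comparisons ask how the loss of XBP1, alone or together with the IRE1 RNase, changes the transcripts of tumor cDC1s.

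Total counts per pool were 22173308 to 26843486 in control, 21889074 to 25334289 in XBP1ΔDC and 21089065 to 26019797 in XBP1ΔDCIRE1truncDC cDC1s. Levels are read counts per library size (CPM), scaled by edgeR's TMM method, and differences are log2 fold changes from edgeR's quasi-likelihood fit of the 3 groups over 10951 genes. A gene was called where the adjusted p was under 0.05 and the fold change over 1.5. The deleted gene *Xbp1* was at 244 to 271 CPM in control, 130.1 to 165 in XBP1ΔDC and 179 to 236 in XBP1ΔDCIRE1truncDC pools, without overlap between either mutant group and control. Per the paper, DCs of XBP1ΔDC mice make no XBP1s protein but still make *Xbp1* mRNA. Counts per gene thus do not measure the deletion. *Ern1*, which encodes IRE1, was not lower in the XBP1ΔDCIRE1truncDC pools (17.0 to 26.0 CPM) than in control (9.82 to 19.0 CPM), and counts per gene do not show the truncation. All 10 cDC1 markers (*Xcr1*, *Clec9a*, *Batf3*, *Irf8*, *Cadm1*, *Itgae*, *Naaa*, *Tlr3*, *Zbtb46* and *Flt3*) were detected. Their summed level was 11569.6 to 12717 CPM in control, 9828 to 10885 in XBP1ΔDC and 10640.4 to 11387 in XBP1ΔDCIRE1truncDC pools, so the sum was below control in both mutant groups without overlap. *Naaa* weighed heavily in it, with means of 4141, 2905 and 3298 CPM in these groups. Means of *Itgae*, *Cadm1* and *Tlr3* were also lower in both mutant groups, and that of *Flt3* barely so (642.2, 641.8 and 636.4 CPM). Those of *Xcr1* (846, 850 and 870 CPM), *Clec9a*, *Batf3* and *Zbtb46* were higher in both, and *Irf8* went both ways. Apart from *Naaa*, only *Itgae*, and *Zbtb46* in XBP1ΔDCIRE1truncDC, had a mean that differed from control by more than the control SD. Summed markers reached 27.7 to 73.7 CPM for cDC2s, 483 to 1174 for monocytes and macrophages, 1.65 to 8.95 for T cells, 0 to 1.99 for B cells, 0 to 0.777 for NK cells and 6.17 to 63.1 for melanoma cells.

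*Notch4* encodes a receptor and was the member with the widest separation between genotypes. Control pools had 42.6, 47.9, 52.9 and 42.4 CPM, in the order of their replicate numbers. XBP1ΔDC pools had 19.6, 22.4, 19.2 and 15.4 CPM. XBP1ΔDCIRE1truncDC pools had 40.2, 33.4 and 43.5 CPM. All 4 XBP1ΔDC pools lay below every other pool, and the XBP1ΔDCIRE1truncDC pools overlapped the control pools at the upper end. Each value rested on 396 to 1294 reads. The mean was 46.4 ± 5.01 CPM in control (SD, n = 4), 19.1 ± 2.87 in XBP1ΔDC (SD, n = 4) and 39 ± 5.2 in XBP1ΔDCIRE1truncDC cDC1s (SD, n = 3). On the log2 scale, XBP1ΔDC cDC1s differed from control by -1.28 (standard error, SE, of 0.134), and the difference was 1.03 in XBP1ΔDCIRE1truncDC against XBP1ΔDC (SE 0.142). Against control, XBP1ΔDCIRE1truncDC cDC1s differed by -0.25 (SE 0.142, 95% confidence interval -0.56 to 0.06). The gene was chosen by these contrasts. For reference, the call rule was met in the lower direction by 0.466% of all genes in XBP1ΔDC against control, and in the higher direction by 0.0731% in XBP1ΔDCIRE1truncDC against XBP1ΔDC. In bulk samples, fewer cells that hold a transcript and less of it per cell cannot be told apart.

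**Figure D1:**
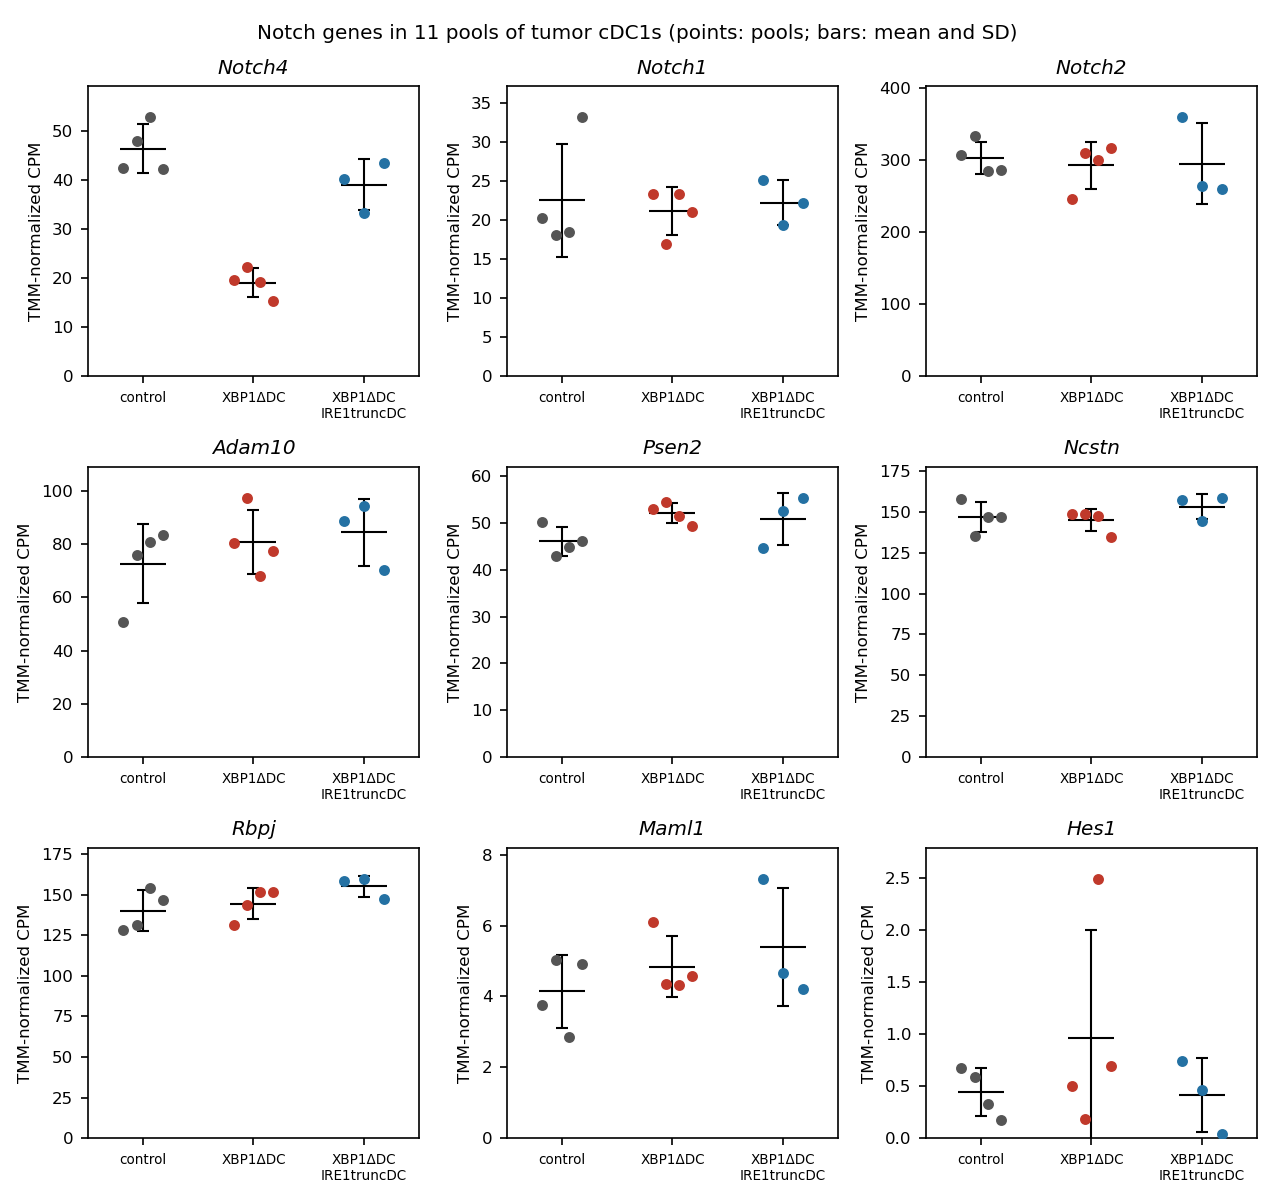
TMM-normalized CPM of the 9 Notch genes in each pool of tumor cDC1s, grouped by genotype. Points are pools and bars the mean and SD, each axis starts at 0, and the SD bar of *Hes1* in XBP1ΔDC is clipped there. The 4 XBP1ΔDC pools stand apart for *Notch4* (15.4 to 22.4 CPM), and the groups overlap for the other 8 genes.

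Because NOTCH4 is known from vessels, endothelial markers were read in the same pools. Of 10 endothelial markers, *Sox17* had no read in any pool, *Tek* had none in 9 pools, and *Tie1* and *Robo4* had none in 8. *Cdh5* reached at most 2.81 CPM. *Kdr* (2.64 to 12.8 CPM) and *Pecam1* (2.99 to 10.2 CPM) were the highest. The 10 markers summed to 13.1 to 17.6 CPM in control, 8.73 to 29.1 in XBP1ΔDC and 16.9 to 29.3 in XBP1ΔDCIRE1truncDC pools, and in 3 of the 4 XBP1ΔDC pools the sum was above that of every control pool. In every control and every XBP1ΔDCIRE1truncDC pool *Notch4* alone was above this sum. In XBP1ΔDC replicates 1 to 3 *Notch4* was below it (19.6, 22.36 and 19.2 against 27.1, 22.41 and 29.1 CPM). In XBP1ΔDC replicate 4 it was above (15.4 against 8.73 CPM). Markers of fibroblasts and pericytes summed to 0.424 to 12.9 CPM in control, 5.94 to 39.3 in XBP1ΔDC and 2.33 to 3.91 in XBP1ΔDCIRE1truncDC pools, so all XBP1ΔDC pools were above all XBP1ΔDCIRE1truncDC pools. The melanoma markers given above summed to 10.7 to 63.1 CPM in XBP1ΔDC and 6.17 to 8.13 in XBP1ΔDCIRE1truncDC pools, and to 8.22 to 58.5 in control. Markers of plasmacytoid DCs summed to 38.8 to 47.7 CPM in control, 31.1 to 35.3 in XBP1ΔDC and 22.5 to 38.6 in XBP1ΔDCIRE1truncDC pools. Like the cDC1 sum, this sum was below control in both mutant groups without overlap. The part of these cells in the result was not tested. Of the markers over 1 CPM in at least 4 pools, none was called by edgeR in any comparison. In this paragraph's lists 4 of 10 endothelial, 3 of 5 fibroblast and pericyte, 3 of 5 melanoma and 3 of 3 plasmacytoid DC markers were tested. Those with an unadjusted edgeR p under 0.05 in the 3 comparisons were 1, 0 and 1 endothelial, 1, 0 and 3 fibroblast and pericyte, 0, 2 and 1 melanoma, and 0, 2 and 0 plasmacytoid DC markers. Of the 10 cDC1 markers, all tested, 2, 3 and 2 had one. Of 6 cDC2 markers tested 0, 0 and 1 had one, and of 9 monocyte and macrophage markers 1, 0 and 0. Over all genes 7.62%, 11.2% and 5.29% had one.

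*Notch4* lies on the plus strand at chr17:34564268-34588503 (GRCm38, GENCODE vM21). Its mRNA with the longest coding sequence has 6591 bases, of which 5892 are coding. The mRNAs of the 9 genes and of all tested genes were searched on the sense strand for the form of the splice sites that IRE1 cuts in *Xbp1*, a loop of 7 bases spelled CNGCAGN and closed by a stem of at least 4 Watson-Crick pairs. Among the 9 genes only *Notch4* held such a loop, and it held 1. The match lies in coding sequence, in exon 21 of 30, at bases 3852 to 3868 of the mRNA and chr17:34582853-34582869 on the plus strand. It is shown beside both splice sites of *Xbp1*, which are in exon 4 of 5 at chr11:5524270-5524288 and chr11:5524295-5524315 on the plus strand, because the comparison turns on the same loop. A match in *Furin*, described below, lies in the last exon (16 of 16), in the 3′ UTR at chr7:80390400-80390414 on the minus strand. Capitals mark the 7 bases of the loop and lower case the paired stem, written 5′ to 3′ with T for U.

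Notch4: gtcacCCGCAGTgtgac

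Xbp1, first site: ctgagtCCGCAGCactcag

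Xbp1, second site: tgcacctCTGCAGCaggtgca

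Furin: caggCTGCAGCcctg

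The stem has 5 pairs in *Notch4*, 4 in *Furin*, and 6 and 7 in *Xbp1*. Of 10326 tested genes with an annotated mRNA, 359 held at least 1 such loop (3.48%), and of 585 with an mRNA within 10% of the length of *Notch4*, 35 did (5.98%). A match is a description of letters and does not show that the mRNA is cut. The shorter word CTGCAG is a spelling that the loop form allows, but the *Notch4* match (CCGCAGT) does not hold it. This word was common, since 85.5% of tested mRNAs held it. *Notch4* had 12 copies (1.82 per kb, a density above that of 89.9% of tested genes). *Psen2* had 5 copies (2.48 per kb, above 96.8%) and *Notch1* had 13 (1.37 per kb, above 78.9%). The relation of this density to the differences between genotypes was not tested.

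*Notch2*, at chr3:98013527-98150361 on the plus strand, encodes the most abundant of the 3 receptors. It was at 307, 333, 285 and 287 CPM in control, 246, 309, 300.0 and 317 in XBP1ΔDC, and 359.8, 265 and 259.9 in XBP1ΔDCIRE1truncDC replicates. The lowest and the highest pool both came from mutant mice and the groups overlapped. The log2 fold change was -0.05 in XBP1ΔDC against control (95% confidence interval -0.30 to 0.20) and -0.04 in XBP1ΔDCIRE1truncDC against control (-0.31 to 0.23). *Notch1*, at chr2:26457903-26516663 on the minus strand, was at 20.3, 18.2, 18.5 and 33.3 CPM in control, 23.4, 17.0, 23.4 and 21.1 in XBP1ΔDC, and 25.1, 19.4 and 22.3 in XBP1ΔDCIRE1truncDC replicates. Control replicate 4 was the highest of all 11 pools and the rest overlapped. Its log2 fold change was -0.09 in XBP1ΔDC against control (-0.51 to 0.33), so a change of the size seen for *Notch4* lay outside the interval of either receptor. Without control replicate 4, this *Notch1* value was 0.16. *Notch3*, the remaining mouse receptor, had at most 1.95 CPM and did not pass the filter on low counts.

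Per kb of mRNA, the 3 receptors together were at 38.3 ± 1.78 CPM in control (SD, n = 4), 33.0 ± 2.84 in XBP1ΔDC (SD, n = 4) and 36.4 ± 5.81 in XBP1ΔDCIRE1truncDC cDC1s (SD, n = 3). *Notch4* made up 17.0%, 17.8%, 21.6% and 17.2% of this sum in control replicates 1 to 4. It made up 10.3%, 9.79%, 8.57% and 6.71% in XBP1ΔDC replicates, and 14.2%, 15.7% and 19.6% in XBP1ΔDCIRE1truncDC replicates. The XBP1ΔDC pools were again apart from the rest, with *Notch2* taking a mean of 84.3% there against 75.3% in control and 77.0% in XBP1ΔDCIRE1truncDC cDC1s. *Notch4* was above *Notch1* per kb in all 11 pools. The ratio of both was 1.83 to 4.11 in control, 1.05 to 1.90 in XBP1ΔDC and 2.30 to 2.81 in XBP1ΔDCIRE1truncDC pools. The share contains the *Notch4* level, so it adds no independent evidence.

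**Figure D2:**
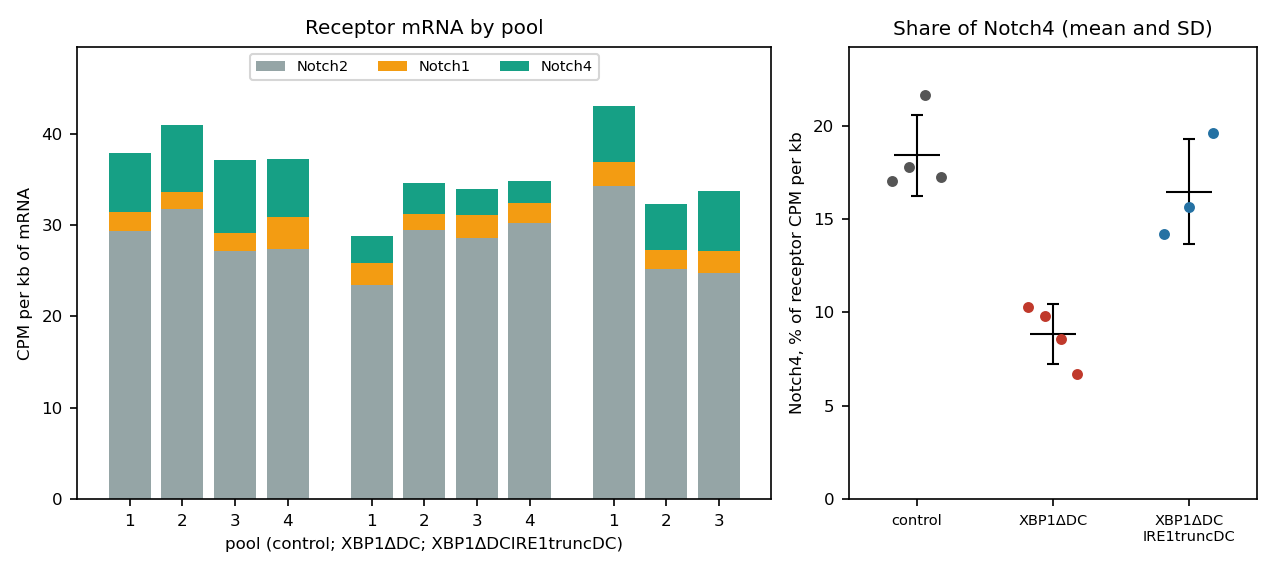
Left, CPM per kb of mRNA of *Notch2*, *Notch1* and *Notch4* stacked for each pool, with control, XBP1ΔDC and XBP1ΔDCIRE1truncDC pools from left to right. Right, the share of *Notch4* in that sum for each pool with mean and SD, which is 6.71% to 10.3% in XBP1ΔDC pools and 14.2% to 21.6% in the others.

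Of the 8 members other than *Notch4*, 7 passed the filter on low counts, and none was called in any comparison, by edgeR or by DESeq2. The background was 0.493% of genes called in XBP1ΔDC against control, 0.21% in XBP1ΔDCIRE1truncDC against control and 0.0731% in XBP1ΔDCIRE1truncDC against XBP1ΔDC. None of the 7 had an unadjusted p under 0.05 either, where 7.62%, 11.2% and 5.29% of all genes did, and in all 3 comparisons their groups overlapped. Groups did not overlap for 5.31%, 10.1% and 6.07% of all genes. Both comparisons with control share the control pools and each mutant group enters 2 comparisons, so the values are not independent of each other.

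Among the processing enzymes, *Adam10*, the sheddase at chr9:70678997-70780229 on the plus strand, was at 50.8 to 83.4 CPM in control, 68.1 to 97.3 in XBP1ΔDC and 70.3 to 94.2 in XBP1ΔDCIRE1truncDC pools. Its lowest pool was control replicate 1. *Psen2*, a catalytic subunit of γ-secretase at chr1:180227004-180263438 on the minus strand, was at 50.2, 43.0, 44.7 and 46.2 CPM in control, 53.0, 54.4, 51.3 and 49.3 in XBP1ΔDC, and 44.6, 52.5 and 55.2 in XBP1ΔDCIRE1truncDC replicates. Only control replicate 1 reached into the range of XBP1ΔDC. The log2 fold change of *Psen2* in XBP1ΔDC against control was 0.18 (SE 0.0908, adjusted p = 0.734 from edgeR), the smallest p among the 7 in that comparison. *Ncstn*, the nicastrin subunit at chr1:172066013-172082795 on the minus strand, was at 135 to 158 CPM in control, 135 to 148 in XBP1ΔDC and 144 to 158 in XBP1ΔDCIRE1truncDC pools. It had the narrowest intervals of the members, with a log2 fold change of -0.02 in XBP1ΔDC (-0.17 to 0.13) and 0.06 in XBP1ΔDCIRE1truncDC against control (-0.10 to 0.23).

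*Rbpj*, the DNA-binding partner of the receptors at chr5:53466152-53657362 on the plus strand, was at 128 to 154 CPM in control, 131 to 152 in XBP1ΔDC and 147 to 159.5 in XBP1ΔDCIRE1truncDC pools. Its log2 fold change was 0.04 in XBP1ΔDC (-0.13 to 0.22) and 0.15 in XBP1ΔDCIRE1truncDC against control (-0.04 to 0.33). *Maml1*, a Mastermind co-activator at chr11:50255634-50292311 on the minus strand, was low, at 2.86 to 5.04, 4.33 to 6.11 and 4.22 to 7.31 CPM in the same order of groups. Its intervals were the widest of the 7, with a log2 fold change of 0.22 (-0.36 to 0.80) in XBP1ΔDC and 0.38 (-0.24 to 1.0) in XBP1ΔDCIRE1truncDC against control, so a difference of the 1.5-fold size used for calls was not excluded at this depth. The target *Hes1*, at chr16:30064384-30067796 on the plus strand, did not pass the filter. It had 16, 16, 8 and 4 reads in control, 11, 4, 65 and 18 in XBP1ΔDC, and 19, 10 and 1 in XBP1ΔDCIRE1truncDC replicates. A single pool, XBP1ΔDC replicate 3 with 2.49 CPM, was above 1 CPM. In a fit with no filter its log2 fold change in XBP1ΔDC against control was 1.11 (SE 0.925, adjusted p = 0.843 from edgeR), and 0.05 without that pool.

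**Figure D3:**
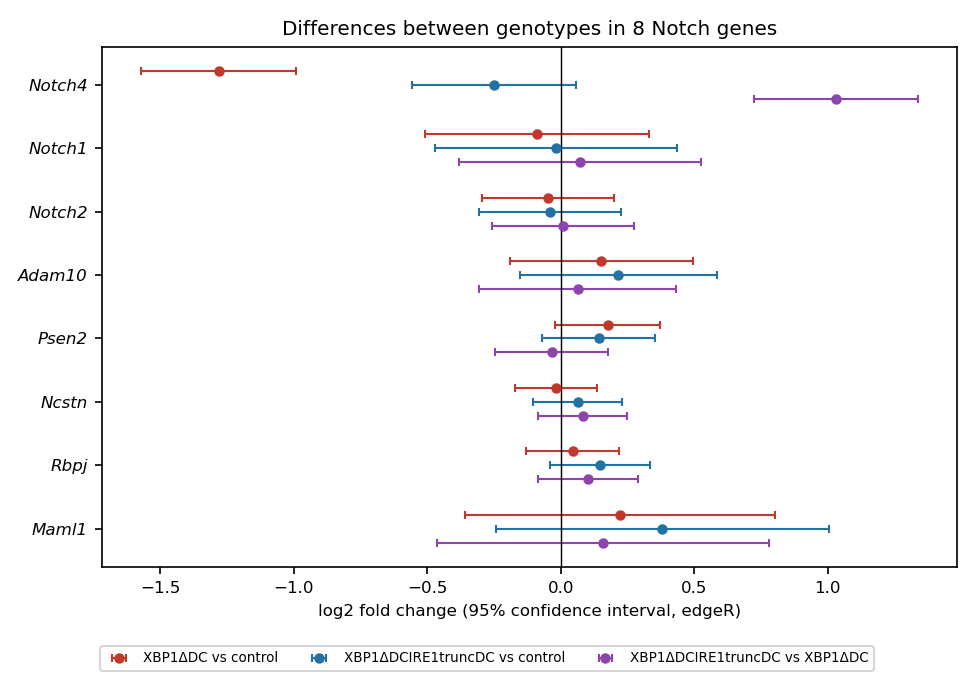
Log2 fold changes of the 8 Notch genes that passed the filter in the 3 comparisons, with 95% confidence intervals from edgeR on the horizontal axis. *Notch4* lies at -1.28, -0.25 and 1.03, contrasts it was chosen by, and the intervals of the other 7 genes include 0.

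In control cDC1s the order of levels per kb of mRNA was *Ncstn* (50.5 ± 3.18 CPM per kb, SD, n = 4), *Notch2* (28.9 ± 2.14), *Rbpj* (25.6 ± 2.30), *Psen2* (22.8 ± 1.53), *Adam10* (15.8 ± 3.25), *Notch4* (7.04 ± 0.760), *Notch1* (2.38 ± 0.758), *Maml1* (0.750 ± 0.186) and *Hes1* (0.303 ± 0.157). The ranges of *Notch2* and *Rbpj* overlapped, as did those of *Rbpj* and *Psen2*, and the other neighbors in this order did not overlap. With the length of all exons of a gene in place of that mRNA, *Adam10* moved up to rank 3. Exons of *Ncstn* share 195 bases with *Copa* on the opposite strand, those of *Notch1* overlap 2 noncoding transcripts on the opposite strand and those of *Notch2* share 541 bases with *Gm42820* on the same strand. *Maml1* shares 135 bases with *Gm26542* and *Furin*, described below, 118 bases with *Gm44851*, both antisense. Whether the counting used strand is not stated, so these levels are uncertain to that extent.

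A wider list of 66 Notch pathway genes, grouped by role, held 53 genes that passed the filter. Leaving out *Notch4*, 52 were tested and edgeR called none in any comparison. DESeq2 called 2, *Jag1* and *Neurl3*, in XBP1ΔDCIRE1truncDC against control. Of these, 35 of 52 had lower values in XBP1ΔDC than in control (67.3%, against 48.8% of all genes), with a median log2 fold change of -0.06 against 0.00 over all genes. In XBP1ΔDCIRE1truncDC against control the median was -0.03, and in XBP1ΔDCIRE1truncDC against XBP1ΔDC it was 0.02. An unadjusted p under 0.05 was seen for 3, 6 and 3 of the 52 genes in the 3 comparisons, where the shares of all genes given above apply. The 13 genes that did not pass were the ligands *Dll1*, *Dll3*, *Dll4*, *Dlk1* and *Dlk2*, the receptor *Notch3*, *Dtx1*, *Rbpjl* and the targets *Hes1*, *Hes5*, *Hey1*, *Hey2* and *Heyl*. None of these exceeded 2.49 CPM in any pool, and *Dlk2* and *Rbpjl* had no read at all.

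*Furin*, the protease that cuts Notch receptors in the Golgi before they reach the surface, was the only one of these 52 genes with an adjusted p under 0.05. It was at 205, 184, 172 and 182 CPM in control, 139, 147, 132 and 113 in XBP1ΔDC, and 186, 164 and 206 in XBP1ΔDCIRE1truncDC replicates. All XBP1ΔDC pools were below all other pools, and the other groups overlapped. The log2 fold change in XBP1ΔDC against control was -0.48 (SE 0.0979, adjusted p = 0.0375 from edgeR), which is short of 1.5-fold, where 0.895% of all genes had an adjusted p under 0.05. This p was 0.00103 to 0.148 over 20 other settings and passed in 11 of them. Leaving out any single control pool, XBP1ΔDC replicate 1, 3 or 4, or XBP1ΔDCIRE1truncDC replicate 1 raised it above 0.05. In XBP1ΔDCIRE1truncDC against XBP1ΔDC the log2 fold change was 0.48 (SE 0.105, adjusted p = 0.197 from edgeR, 0.0114 from DESeq2, up to 0.596 in other settings). *Furin* is among the RIDD targets that the study took from earlier work. Of the 57 listed genes that are not members, 1 (*Furin*) held the loop described above (1.75%), where 3.48% of all tested genes with an annotated mRNA held it. Whether *Furin* mRNA is cut was not tested.

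**Figure D4:**
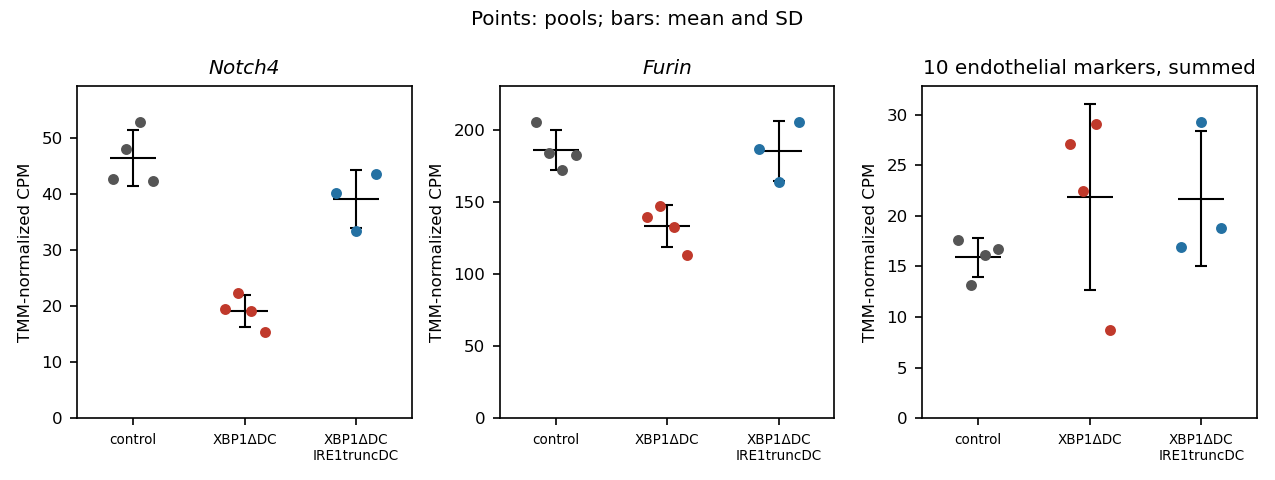
TMM-normalized CPM of *Notch4*, of *Furin* and of 10 endothelial markers summed, in each pool by genotype, with mean and SD. The XBP1ΔDC pools are the lowest for *Notch4* (15.4 to 22.4 CPM) and *Furin* (113 to 147 CPM), and the endothelial sum overlaps between genotypes (8.73 to 29.1 CPM in XBP1ΔDC).

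The ligands that passed the filter were *Jag1* and *Jag2*. *Jag1* was at 3.98, 3, 2.99 and 3.48 CPM in control, 4.48, 5.26, 3.87 and 3.45 in XBP1ΔDC, and 7.04, 4.10 and 13.3 in XBP1ΔDCIRE1truncDC replicates. The XBP1ΔDCIRE1truncDC pools were above all control pools, replicate 2 by a small margin. The log2 fold change against control was 1.27 (SE 0.342, adjusted p = 0.175 from edgeR) and the gene was called by DESeq2. *Jag2* was the higher ligand, with 14.7 CPM per kb in control, and overlapped between genotypes. Among the genes of trafficking and turnover, *Neurl3*, a ubiquitin ligase, was at 50, 40.3, 40.4 and 46.8 CPM in control and 33.4, 19.0 and 28.7 in XBP1ΔDCIRE1truncDC replicates, which did not overlap. Its log2 fold change there was -0.71 (SE 0.199, adjusted p = 0.185 from edgeR), and DESeq2 called it as well. *Dtx4* had a log2 fold change of -0.39 in the same comparison (adjusted p = 0.29 from edgeR). *Neurl1a* was low, at 0.555 to 1.29 CPM in control, 1.95 to 4.17 in XBP1ΔDC and 0.739 to 3.73 in XBP1ΔDCIRE1truncDC pools, with a log2 fold change of 1.65 in XBP1ΔDC (SE 0.523, adjusted p = 0.33 from edgeR).

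Among the glycosylation enzymes that modify the receptors, *Lfng* was the highest in control (52.3 CPM per kb), followed by *Poglut1* (31.6) and *Mfng* (22). *Pofut1* had a log2 fold change of -0.27 in XBP1ΔDC against control (adjusted p = 0.646 from edgeR). *Lfng* and *Poglut1* had -0.21 and 0.57 in XBP1ΔDCIRE1truncDC against control (adjusted p = 0.406 and 0.421 from edgeR). None of these passed. In the nuclear group *Hdac1*, *Snw1* and *Hdac2* were the highest per kb (59.0, 45.9 and 35.9 CPM) and their groups overlapped in every comparison. Of the targets only *Ccnd1*, *Myc* and *Nrarp* passed the filter. Their log2 fold changes in XBP1ΔDC against control were -0.11, -0.08 and 0.01, with adjusted p of 0.925, 0.981 and 0.999 from edgeR. *Nrarp*, a negative regulator induced by Notch, was at 0 to 2.76 CPM, so its SE of 0.925 leaves large differences undetectable.

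**Figure D5:**
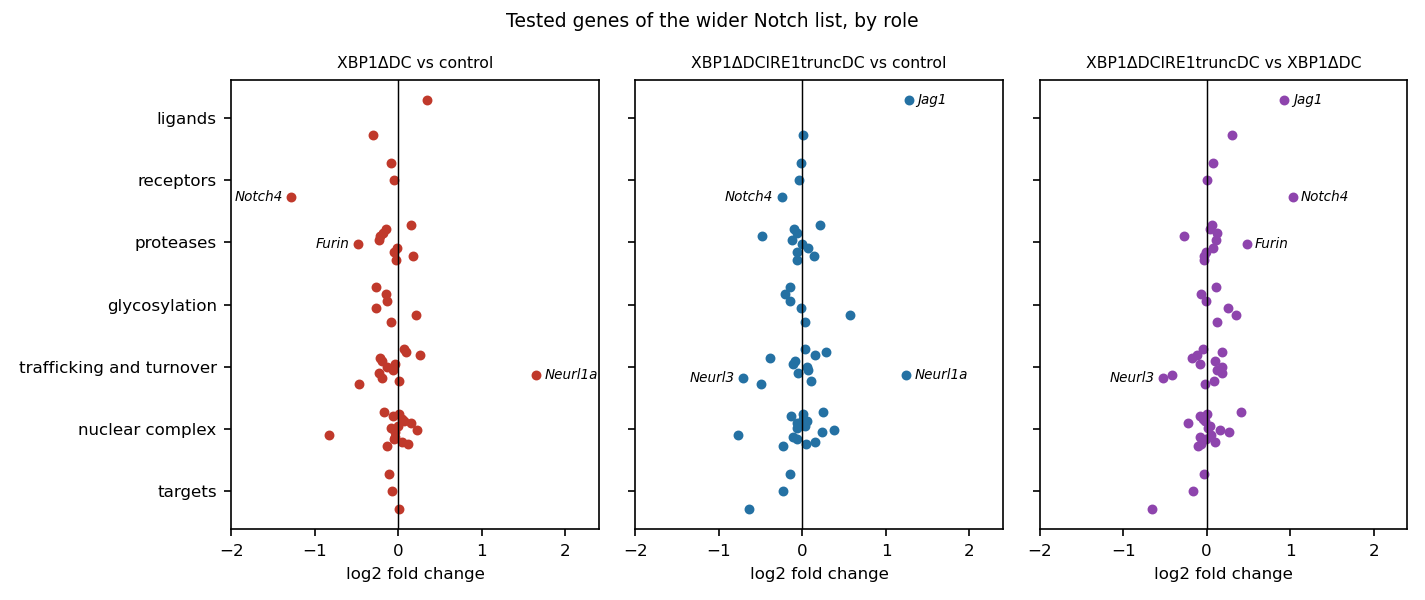
Log2 fold changes of the 53 tested genes of the wider Notch list in the 3 comparisons, with a point for each gene and rows for roles. *Notch4* is the lowest point in XBP1ΔDC against control (-1.28), *Furin* is the lowest protease there (-0.48), and most genes lie near 0.

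The 10 tested genes on each side of *Notch4* on chromosome 17, over 657 kb, were read as a check on the surrounding region. None was called by edgeR in any comparison, and the medians of their log2 fold changes were -0.10, -0.05 and 0.07. An unadjusted p under 0.05 was seen for 3, 7 and 2 of the 20 genes, where 7.62%, 11.2% and 5.29% of all genes had one. In XBP1ΔDC against control these were *H2-Ab1* (-0.20), *Ppt2* (-0.31) and *Atf6b* (-0.38, adjusted p = 0.106 from edgeR). In XBP1ΔDCIRE1truncDC against control they were *H2-Ob* (-0.27), *H2-Ab1* (-0.26), *H2-Aa* (-0.23), *H2-Eb1* (-0.24), *Pbx2* (-0.50), *Agpat1* (0.21) and *Ppt2* (-0.34). In XBP1ΔDCIRE1truncDC against XBP1ΔDC they were *Pbx2* (-0.45) and *Atf6b* (0.24). In XBP1ΔDC against control the 20 neighbors ranged from -0.38 to 0.17, and in XBP1ΔDCIRE1truncDC against XBP1ΔDC from -0.45 to 0.33, short of -1.28 and 1.03 for *Notch4*. In XBP1ΔDCIRE1truncDC against control they ranged from -0.50 to 0.43, wider than the -0.25 of *Notch4*. *Notch4* was chosen for its fall and recovery, so its larger values in the other 2 comparisons were set by that choice and add no support.

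By Pearson correlation of log2 CPM over the 11 pools, the genes whose pattern was most like that of *Notch4* were *Ece1* (r = 0.952), *Fam134c* (0.948), *Pkd1* (0.946), *Pef1* (0.946) and *Rnf130* (0.942). *Furin* ranked 11 (r = 0.918). These values rest largely on the gap between genotypes. After the genotype means were removed, r was 0.696, 0.332, 0.601, 0.777 and 0.371 for the 5 genes. Their log2 fold changes in XBP1ΔDC against control were -0.29 for *Ece1*, -1.14 for *Fam134c*, -0.71 for *Pkd1*, -0.26 for *Pef1* and -1.12 for *Rnf130*, a range of sizes. By Spearman correlation, 1 of the 5 genes (*Ece1*) stayed in the top 5. The loop described above was present in 1 of the 4 with an annotated mRNA, *Pkd1*, where 3.48% of all tested genes with an mRNA held it. With 4 genes this count says little, and the part of the loop was not tested. The paper names *Rnf130* among RIDD targets lower in XBP1ΔDC but not in XBP1ΔDCIRE1truncDC cDC1s, and the loop was not found in it.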

How the data were processed

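Bulk RNA-seq of 11 pools of sorted tumor cDC1s was used. Per the labels' processing notes and the methods, the authors trimmed single-end SMART-seq reads with Trimmomatic 0.39, aligned them to mm10 with STAR 2.7.3a and counted reads per gene with HTSeqCount. The deposited count table is not normalized. The authors also deposited normalized log2 values (limma 3.42.2), which served only as an alternative input. The counts were tested with edgeR 4.0.16 in R 4.3.3 (TMM scaling, quasi-likelihood test, genes over 1 CPM in at least 4 pools, Benjamini-Hochberg adjustment over all 10951 genes). Groups came from the sample labels. Confidence intervals are 95%. Log2 CPM used a prior count of 2. Alternatives used DESeq2 1.42.0 and limma 3.58.1. Levels per kb, positions and sequences came from GENCODE vM21 (GRCm38, the build of mm10), taking the mRNA with the longest coding sequence. Replicates are separate pools. Pools of a group differed beyond counting error (chi-square per degree of freedom 21.2 to 67.3). The edgeR script was tested on simulated counts.

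The members, the wider list, the marker lists and the tests were chosen with earlier results of these data known. Genes named are the members, listed genes with the smallest p or the highest level in their role, neighbors with p under 0.05, the 5 genes most like *Notch4*, and markers. A result on 1 further gene of the wider list is not reported here. The motif search, the exon-length order and the fit of *Hes1* without a pool were added after seeing the data. Counts per gene do not show cleavage of an mRNA.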

Additional observations from a re-analysis of the deposited data

Results flagged for a closer look

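Of 34 groups of 4 pools examined over 17 named genes, 3 had a pool whose gap to the others was above the 95% critical value of Dixon's test for outliers, and chance flags about 1 in 20 groups. *Notch1* was at 33.3 CPM in control replicate 4, against 18.2 to 20.3 in the other control pools. That pool is the control with the IRE1 fl/fl allele. *Maml1* was at 6.11 CPM in XBP1ΔDC replicate 1, against 4.33 to 4.58 in the other 3. *Ncstn* was at 135 CPM in XBP1ΔDC replicate 4, against 147 to 148 in the other 3.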

How the results depend on the processing

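Over 20 other settings *Notch4* kept its direction in all 3 comparisons, with log2 fold changes of -1.36 to -1.19, -0.34 to -0.15 and 0.94 to 1.13. These settings reuse the pools by which *Notch4* was chosen, so the constant direction is a description and no independent support. None of the other members was called under any setting. In the wider list DESeq2 called 2 genes in XBP1ΔDCIRE1truncDC against control (*Jag1* and *Neurl3*) and dropping the fold limit called 1 (*Furin*) in XBP1ΔDC against control. With 20 genes on each side of *Notch4*, 1 neighbor (*Slc39a7*) was called in XBP1ΔDC against control. The cause of these moves was not tested. Over all genes, DESeq2 called 95 and 36 genes in the comparisons with XBP1ΔDCIRE1truncDC, where edgeR called 23 and 8, and dropping the fold limit called 98 and 39 in the comparisons with control, where edgeR called 54 and 23. Fits of only the 2 groups compared gave 15 in XBP1ΔDCIRE1truncDC against control, and leaving out a pool gave 37 to 58, 12 to 26 and 4 to 10.

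Deviations of same-numbered pools from their group means had a mean r of 0.0979, 0.0035 and -0.221 in the 3 comparisons. In XBP1ΔDC against control r was 0.0418 to 0.133 over the 4 same-numbered pairs, against a mean of -0.0326 for other pairs. These values do not settle whether the number pairs control and XBP1ΔDC pools, so a fit with it as a block is given too. With the replicate number as a block, *Notch4* had log2 fold changes of -1.28, -0.32 and 0.96, *Furin* had -0.49 in XBP1ΔDC against control (adjusted p = 0.0957 from edgeR), 0 other members and 0 genes of the wider list were called, and 40, 11 and 3 genes in all were called in the 3 comparisons.

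*Hes1* and *Maml1* are limited by depth, since most pools hold under 20 and under 140 reads of them.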
